A study of Mus musculus with 18 samples.

Results

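Keratins, desmosomal proteins and proteins of squamous differentiation were followed in mouse uterus as a set of 38 genes, chosen by name for their part in epithelial structure, out of 25791 gene symbols. The set held 4 keratins of simple epithelium (Krt7, Krt8, Krt18, Krt19), 8 keratins of stratified epithelium (Krt4, Krt5, Krt6a, Krt6b, Krt13, Krt14, Krt15, Krt17), 2 other keratins (Krt23, Krt80), 10 desmosome genes, 11 genes of the cornified envelope and its surroundings, and 3 regulators or signalling genes. Messenger RNA came from cross sections of uteri of mice aged 12 weeks on a mixed 129Sv X C57BL/6 background, either wild type (WT) or lacking Tsc2 in the uterus (KO), Tsc2 being a brake on the growth kinase complex mTORC1. In the intact groups the ovaries stayed in place, and in the ovx groups they were taken out at 4 weeks of age. In the E2 groups they were taken out at 4 weeks and a slow-release pellet of 0.5 mg estradiol was carried for 8 weeks. There were 18 libraries, 3 to a group. The labels used here do not name the driver of the deletion, the cells in which it acts or the stage of the estrous cycle. They do not say that libraries came from separate animals, and p-values therefore reflect only how these samples scatter, which may be technical.

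Keratins are the intermediate filament proteins of epithelia, and each filament pairs a type I with a type II chain. Krt8 and Krt7 (type II) with Krt18 and Krt19 (type I) build the filaments of single-layered epithelia such as the lining and glands of the uterus. Krt5 and Krt14 mark the basal layer of stratified epithelia, and Krt4 and Krt13 their upper layers in internal organs. Krt6a, Krt6b and Krt17 are known from activated and appendage epithelium, and Krt15 from basal cells. Desmosomes are junctions that tie keratin filaments of neighbouring cells together through cadherins, plakophilins, plakoglobin and desmoplakin. In squamous differentiation, which the transcription factor p63 (Trp63) controls, cells also lay down a cornified envelope of cross-linked proteins. The uterine lining is a simple epithelium, and squamous change in it is known from prolonged estrogen exposure.

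Values are FPKM, a level per transcript length and per library, and the table gives no reads, so depth is unknown. Over the 18 libraries FPKM summed to between 216032 and 591668, and between 4228 and 7395 genes were listed at 0. Tsc2 had mean levels of 2.27, 3.30 and 2.59 FPKM in WT intact, ovx and E2 and of 1.83, 2.90 and 2.15 FPKM in the KO groups of the same states, so its transcript was lower on average but present in KO, and the genotypes overlapped in ovx and in E2. The libraries were divided into 4 sets by the steps that their lowest values share, called batches here from the values alone. The number of sets was fixed at 4 and not found from the data. Pairs of libraries shared a median of 7.33% of steps within a batch and 1.59% between batches. The ranges overlapped slightly, with 3.56% the lowest within and 3.98% the highest between. Batches 1 and 2 held only intact libraries, and batches 3 and 4 only libraries without ovaries, so batch and the presence of ovaries cannot be told apart. WT intact replicate 4, KO ovx replicate 4 and KO E2 replicates 1 and 3 stood apart from their groups, and results that rest on them are given with and without them.

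Of the 38 members, 26 reached 1 FPKM in 3 or more libraries and were tested with limma on log2(FPKM + 1) among 13898 genes, at an adjusted p under 0.05. All 14 keratins passed this filter, as did 7 of 10 desmosome genes, 3 of 11 cornified-envelope genes and 2 of 3 regulators. Dsg3, Dsc3 and Pkp1 (desmosome), Ivl, Lor, Tgm1, Tgm3, Cnfn, Krtdap, Lypd3 and Cdsn (cornified envelope) and Trp63 did not pass it.

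**Figure D1:**
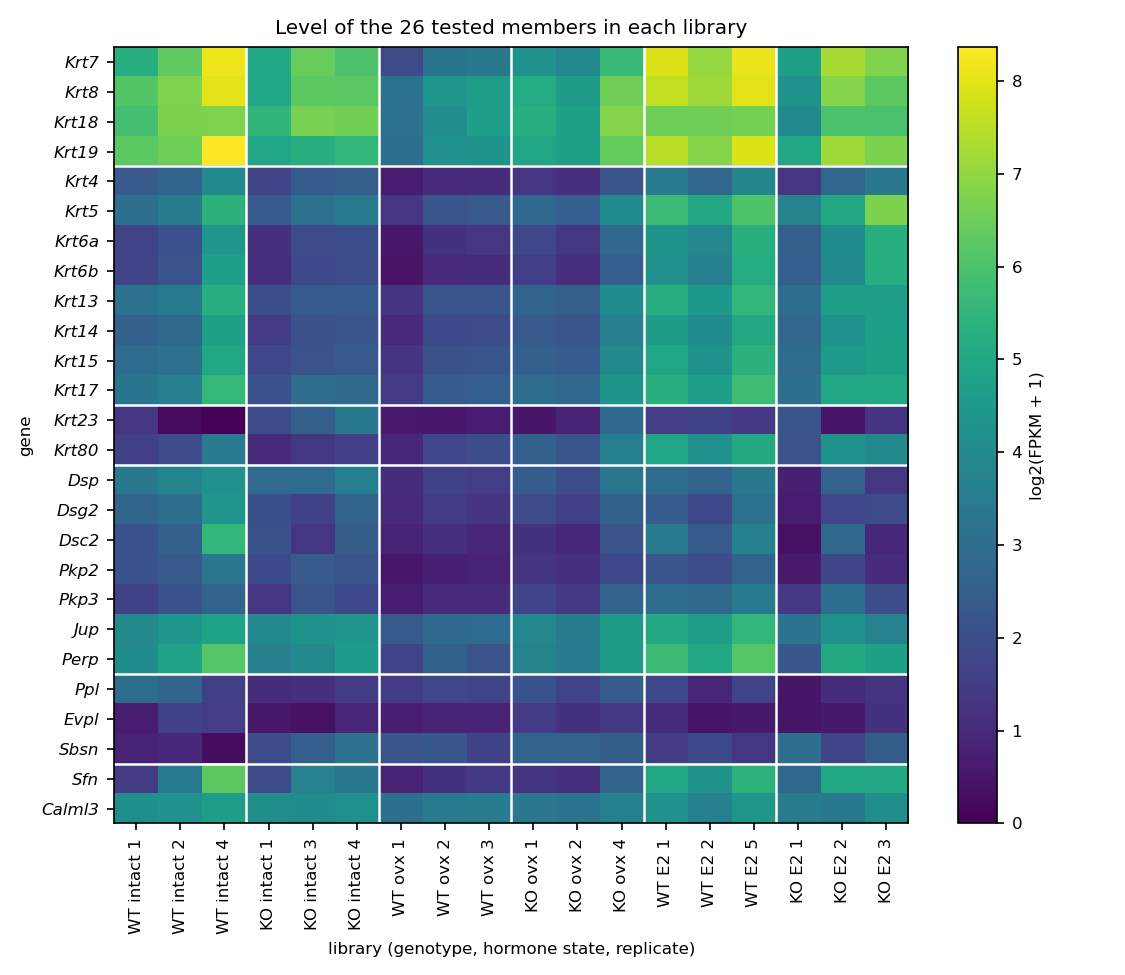
Level of the 26 tested members, as log2(FPKM + 1), in each of the 18 libraries, with white lines between groups and between the 6 gene groups. The simple keratins at the top are the brightest rows, the WT ovx libraries the darkest columns, and WT ovx replicate 1 holds the lowest value of all 4 simple and all 8 stratified keratins.

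Keratins and desmosome genes rose together with estradiol in WT uterus. Between E2 and ovx, 22 of 26 tested members rose and 0 fell, where 32.3% of all genes tested rose and 15.2% fell. The median log2 difference was 2.78 over the tested members and 0.24 over all genes. In KO uterus the same comparison called 4 members higher and 1 lower, against 15.9% of all genes higher and 11.2% lower, with a median of 0.34 over the tested members (1.05 without KO E2 replicate 1 and 0.79 without KO ovx replicate 4) and 0.07 over all genes. Intact against ovx called 20 members higher and 1 lower in WT (29.9% and 15.4% of all genes) and 1 higher and 0 lower in KO (7.14% and 8.74% of all genes). Quantile normalization turned the balance of all genes between WT E2 and WT ovx from 4484 higher and 2115 lower to 3139 higher and 4064 lower, a shift of -0.29 in the median log2 difference, and still called 21 members higher and 0 lower. Median-ratio scaling, with 4048 higher and 3049 lower over all genes, also called 21 members higher. Within batch 3 the WT response to E2 had a median of 3.25 over the tested members (1 E2 against 2 ovx libraries) and within batch 4 of 2.46 (2 against 1).

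Counted by whether the 3 libraries of each group lay apart, 23 members were higher and 0 lower in WT E2 than in WT ovx (43.5% and 23.3% of all genes). In KO the same count was 1 higher and 1 lower (20.4% and 15.9% of all genes). For intact against ovx it was 21 higher and 1 lower in WT (40.0% and 21.0% of all genes) and 2 higher and 6 lower in KO (23.2% and 17.9% of all genes). Between KO and WT, 2 members were higher and 7 lower in intact uterus (10.3% and 12.5% of all genes), 20 higher and 0 lower in ovx (26.8% and 13.4%), and 0 higher and 5 lower under E2 (10.4% and 12.1%).

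Genes of other cell types moved in the comparison of WT E2 with WT ovx. The 12 general epithelial markers, such as Epcam and Cdh1, summed to between 77.6 and 121 FPKM in WT ovx and between 589 and 935 in WT E2, and 11 of 12 rose, with a median of 2.32. The 9 stromal markers summed to between 501 and 589 FPKM in WT ovx and between 138 and 200 in WT E2, where 5 of 9 fell. In KO, the epithelial sum was 173 to 480 FPKM in ovx and 72.5 to 649 in E2. The part of these shifts in the results was not tested, and in whole uterus more epithelial cells and more RNA per epithelial cell cannot be told apart.

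The 4 simple keratins summed to more FPKM than the 8 stratified keratins in every library. Krt19, a type I keratin of simple epithelia, stood at 7.54, 18 and 18.9 FPKM in the 3 WT ovx libraries and at 179, 115 and 241 in WT E2. It stood at 29.0, 25.7 and 82.0 FPKM in KO ovx and at 31.0, 144 and 105 in KO E2. The WT groups lay far apart, while the KO groups overlapped, with KO E2 replicate 1 inside the range of KO ovx. The log2 difference between E2 and ovx was 3.54 ± 0.63 (SE) in WT, adjusted p = 0.00055, and 0.96 ± 0.63 in KO, adjusted p = 0.271.

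Krt7 had the largest response to E2 in WT among the tested members, with mean FPKM 30.9 times that of WT ovx and a log2 difference of 4.82 ± 0.76 (adjusted p = 0.000252). Krt8 rose by 3.50 ± 0.69 and Krt18, its usual type I partner, by 2.59 ± 0.58 in WT. In KO the same differences were 1.67 ± 0.76 for Krt7, 0.35 ± 0.69 for Krt8 and -0.30 ± 0.58 for Krt18, none past the threshold. So the 4 simple keratins rose in WT and none of the 4 was called in KO (1 of 4 at an unadjusted p under 0.05).

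The difference between the genotypes in the response to E2 was itself past the threshold for Krt8 (-3.15 ± 0.97, adjusted p = 0.0496) and Krt18 (-2.89 ± 0.82, adjusted p = 0.0364). Here 7 of 26 tested members were called, all 7 with the smaller response in KO, where 6.95% of all genes were called in that direction and 4.05% in the other. For Krt7 the difference was -3.15 ± 1.07 (adjusted p = 0.07) and for Krt19 -2.57 ± 0.89 (adjusted p = 0.0748). Krt8 lost its call without any one of 10 of the 12 libraries, the exceptions being KO ovx replicate 2 and KO E2 replicate 2, with an adjusted p up to 0.135. Krt18 lost its call without any one of 8 libraries, the exceptions being WT ovx replicate 3, KO ovx replicate 2 and KO E2 replicates 2 and 3, with an adjusted p up to 0.105.

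With ovaries in place, Krt19 in WT (75.2, 90.4 and 329 FPKM) lay above all KO libraries (30.0, 37.2 and 45.5 FPKM). The log2 difference was -1.79 ± 0.63, and its adjusted p of 0.143 missed the threshold. Without WT intact replicate 4 the difference was -1.13 ± 0.61. Marker sums of other cell types did not overlap between these groups either. General epithelial markers summed to 306 to 1040 FPKM in WT and 158 to 285 in KO, smooth muscle markers (8 genes) to 73.4 to 462 and 492 to 1710, and endothelial markers (7 genes) to 1.92 to 14.5 and 23.7 to 59.3. Of these lists, 0 of 12, 1 of 8 and 3 of 7 genes were called, and their part in the keratin differences was not tested. Krt8 (68.8, 107 and 257 FPKM in WT against 29.2, 75.7 and 74.5 in KO), Krt7 and Krt18 overlapped between the genotypes. WT intact replicate 4 was the highest of all 18 libraries for 3 of the 4 simple keratins. Against ovx, all 4 simple keratins rose in intact WT, by 3.72 ± 0.76 for Krt7, 2.89 ± 0.69 for Krt8, 2.47 ± 0.58 for Krt18 and 3.16 ± 0.63 for Krt19, and each stayed called without any single library. In KO none of the 4 was called in intact against ovx (0 at an unadjusted p under 0.05).

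Without hormone the order of the genotypes was the other way round. In ovx uterus Krt18 stood at 7.98, 16.2 and 24.6 FPKM in WT and at 37.6, 26.9 and 111 in KO, so that the groups did not overlap. The log2 difference of 1.64 ± 0.58 had an adjusted p of 0.114. Krt7 (1.74 ± 0.76) and Krt19 (1.45 ± 0.63) also did not overlap between the genotypes, and Krt8 did. Without KO ovx replicate 4 the differences were 1.05 ± 0.57 for Krt18, 1.21 ± 0.82 for Krt7, 0.94 ± 0.66 for Krt19 and 0.81 ± 0.72 for Krt8. All 26 tested members had a higher mean in KO ovx than in WT ovx, and 20 of 26 did not overlap, where 26.8% of all genes did not overlap in that direction. Without KO ovx replicate 4, Calml3 turned to -0.09 ± 0.27 and the other members stayed higher in KO. Jup alone passed the test, where 4.63% of all genes were called higher and 0.791% lower. The median was 1.06 over the tested members and 0.09 over all genes, and 1.15 within batch 3, where 3 KO and 2 WT libraries could be compared. Without KO ovx replicate 4 it was 0.66, against 0.04 over all genes. The sum of epithelial markers ranged from 173 to 480 FPKM in the KO ovx libraries against 77.6 to 121 in WT, and its part was not tested.

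**Figure D2:**
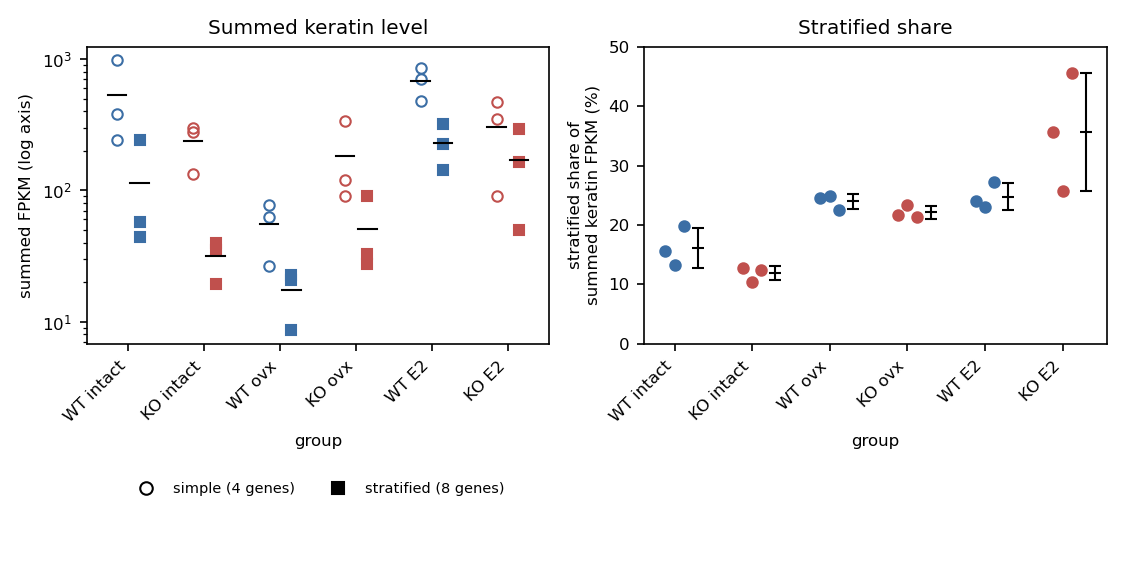
Left, summed FPKM of the 4 simple keratins (open circles) and of the 8 stratified keratins (squares) in each library on a log axis, with the group mean as a bar. Right, the stratified share of that sum in percent with mean ± SD, n = 3, blue for WT and red for KO: intact libraries lie between 10.5% and 19.8%, ovx and WT E2 libraries between 21.3% and 27.3%, and KO E2 between 25.8% and 45.7%.

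Stratified keratins were detected in every library, at a lower summed level than the simple ones. Krt5, the basal type II keratin, stood at 1.52, 3.60 and 4.05 FPKM in WT ovx, at 50.6, 32.1 and 65.2 in WT E2, at 6.07, 4.72 and 15.9 in KO ovx and at 12.5, 32.1 and 104 in KO E2. Its WT groups did not overlap, and in KO the lowest E2 library lay below the highest ovx library. The log2 difference between E2 and ovx was 3.64 ± 0.69 in WT (adjusted p = 0.000829) and 2.03 ± 0.69 in KO (adjusted p = 0.0407).

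Krt14, the basal type I keratin, stood at 1.06, 2.64 and 2.82 FPKM in WT ovx, 23.5, 15.9 and 32.1 in WT E2, 4.07, 3.64 and 11.6 in KO ovx and 5.72, 18.6 and 25.4 in KO E2. It rose in WT by 2.97 ± 0.59, and its 1.18 ± 0.59 in KO missed the threshold (adjusted p = 0.147). All 8 stratified keratins rose with E2 in WT, between 2.42 (Krt4) and 3.64 (Krt5), and 3 of 8 in KO, namely Krt5, Krt6a (1.98 ± 0.70) and Krt6b (2.18 ± 0.73). In KO, each of these 3 calls ended without KO ovx replicate 1 or 2 or without KO E2 replicate 2 or 3, with adjusted p up to 0.173 for Krt5, 0.189 for Krt6a and 0.156 for Krt6b. With only the groups compared fitted, they ended too (adjusted p = 0.131, 0.115 and 0.0892). With KO E2 replicates 1 and 3 both left out, 0 members were called in this comparison (9 of 26 at an unadjusted p under 0.05). None of the 8 differed between the genotypes in the response to E2 by this test (5 of 8 at an unadjusted p under 0.05, differences from -2.16 for Krt13 to -1.32 for Krt6b).

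In intact uterus the 8 stratified keratins had a median log2 difference of -1.33 between KO and WT, and of -0.55 without WT intact replicate 4. Over all tested members the median was -0.99 with and -0.35 without that library, against -0.04 over all genes in both cases. For Krt13, Krt14, Krt15 and Krt17 the groups did not overlap, where 12.5% of all genes did not overlap in that direction. Krt13 stood at 7.93, 9.83 and 37.0 FPKM in WT and 3.00, 4.16 and 4.36 in KO (-1.69 ± 0.58, adjusted p = 0.134), or -1.04 ± 0.54 without WT intact replicate 4. None of the 8 passed the test in this comparison, in which 1 of 26 tested members (Sbsn) was called higher and 0 lower, against 1.19% and 0.993% of all genes. At an unadjusted p under 0.05 there were 4 of 8. Within batch 1 the tested members had a median of -1.20 (2 against 2 libraries) and within batch 2 of -0.44 (1 against 1). Against ovx, 7 of 8 rose in intact WT and 0 of 8 in KO (0 at an unadjusted p under 0.05). The WT calls of Krt5, Krt6b (here also without WT ovx replicate 2 or 3), Krt13, Krt14, Krt15 and Krt17 ended without WT intact replicate 4 or without WT ovx replicate 1, and Krt4 stayed called without any single library. Over all members the WT count of 21 fell to 13 without WT intact replicate 4 and to 12 without WT ovx replicate 1.

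The share of stratified keratins in the summed FPKM of the 12 simple and stratified keratins was 16.2% ± 3.32 (SD, n = 3) in WT intact and 11.9% ± 1.19 in KO intact. It was 24.0% ± 1.31 in WT ovx, 22.1% ± 1.09 in KO ovx and 24.8% ± 2.22 in WT E2. Between WT ovx and WT E2 the mean sum of simple keratins went from 55.5 to 682 FPKM and that of stratified keratins from 17.3 to 230, while the ranges of the share overlapped. In KO E2 the share was 35.7% ± 9.92, with 35.7%, 25.8% and 45.7% in replicates 1, 2 and 3. Replicate 2 lay inside the range of WT E2, and replicates 1 and 3 lay above every other library. The lower share in the 6 intact libraries goes with their batches, and the ovaries and the batch cannot be told apart as its source.

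Part of the coding sequence is nearly the same in several of these genes. It is shown here because it may limit how well short reads can be told apart between them. The stretch below was chosen as the one within a single Krt19 exon with most bases shared with the other genes shown. It does not stand for the whole coding sequences. The lines below give 60 coding bases from exon 3 of the type I keratins, 5′ to 3′, in mouse GRCm38 with GENCODE M21 models, with capitals where a gene differs from Krt19. The windows are chr11:100142122-100142181 for Krt19, chr11:100119692-100119751 for Krt13, chr11:100205018-100205077 for Krt14, chr11:100134245-100134304 for Krt15 and chr11:100259243-100259302 for Krt17, all on the minus strand, and chr15:102029850-102029909 on the plus strand for Krt18.
Krt19: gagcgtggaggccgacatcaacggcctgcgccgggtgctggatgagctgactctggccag
Krt13: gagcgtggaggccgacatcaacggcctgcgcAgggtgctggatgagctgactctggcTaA
Krt14: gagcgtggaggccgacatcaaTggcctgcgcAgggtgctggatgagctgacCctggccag
Krt15: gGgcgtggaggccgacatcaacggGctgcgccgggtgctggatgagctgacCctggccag
Krt17: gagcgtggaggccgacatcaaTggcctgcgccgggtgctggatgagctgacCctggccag
Krt18: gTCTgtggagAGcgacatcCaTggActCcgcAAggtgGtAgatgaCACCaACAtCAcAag
Of these 60 bases, 57 were identical to Krt19 in Krt13, Krt14 and Krt15 and 58 in Krt17, but 37 in Krt18, a simple keratin like Krt19.

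The same was done for type II keratins against Krt8, with 60 coding bases from exon 7, on the minus strand except for Krt7. Of these, 3 are shown. Krt6a and Krt6b also went into the choice of the stretch and are not shown. The windows are chr15:101997902-101997961 for Krt8, chr15:101423382-101423441 for Krt7, chr15:101919585-101919644 for Krt4 and chr15:101708925-101708984 for Krt5.
Krt8: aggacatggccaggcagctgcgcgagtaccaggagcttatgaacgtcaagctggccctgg
Krt7: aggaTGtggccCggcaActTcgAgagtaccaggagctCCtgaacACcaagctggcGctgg
Krt4: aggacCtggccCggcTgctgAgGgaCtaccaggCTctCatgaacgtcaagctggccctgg
Krt5: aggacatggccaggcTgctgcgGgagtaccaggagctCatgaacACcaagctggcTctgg
Among the genes shown, identity to Krt8 ran from 49 bases in Krt7 to 54 in Krt5. Over whole coding sequences, Krt6a and Krt6b shared 60.4% of the runs of 50 bases of Krt6a, and Krt5 and Krt6a 8.87% of those of Krt5. Among type I keratins, Krt14 and Krt16, which is outside the set, shared 13.3% of the runs of Krt14. Krt17 and Krt14 shared 4.40% of those of Krt17, while Krt19 shared no such run with the keratins compared. The sources used here do not say how reads that match several of these genes were divided, so levels of single stratified keratins, above all Krt6a against Krt6b, are uncertain.

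The 4 type I stratified keratins kept a nearly fixed ratio to Krt19 among the libraries without ovaries, KO E2 aside, and Krt13 and Krt15 kept another among the intact libraries. Across the 6 ovx and 3 WT E2 libraries Krt19 itself varied 31.9-fold, while Krt13 stayed between 18.4% and 20.1% of it, a span of 1.09-fold. Krt14 lay between 13.1% and 14.9%, Krt15 between 15.8% and 18.7% and Krt17 between 21.5% and 24.6% of Krt19. Over the 13718 tested genes above 0 in these 9 libraries, ranked by the span of their ratio to Krt19, Krt13, Krt14, Krt17 and Krt15 took places 1, 2, 3 and 4, in that order, and the median gene spanned 23.3-fold. This ranking was added after the ratios had been seen, and it is a description of these libraries.

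Krt18, the simple type I keratin with the unlike sequence, spanned 3.36-fold against Krt19 in the same 9 libraries, and Epcam 2.39-fold. The type II keratins Krt80, Krt8, Krt5 and Krt4 spanned 1.40-fold, 1.41-fold, 1.54-fold and 1.68-fold, at places 8, 9, 11 and 15. Krt6a, Krt6b and Krt7, also type II, spanned 2.67-fold, 3.21-fold and 3.58-fold. In the 6 intact libraries Krt13 lay between 9.59% and 11.3% of Krt19 and Krt15 between 8.36% and 9.31%, places 2 and 1 of 13505 genes. Krt14 (5.84% to 8.68%) and Krt17 (10.9% to 18.6%) took places 9 and 20 there, and Krt18 ranged from 32.6% to 275%. The lower ratios in intact libraries go with their batches. The part of shared sequence in these ratios was not tested.

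KO E2 replicates 1 and 3 lay above this pattern, except for Krt17 in replicate 1 (24.5% of Krt19). Replicate 2 lay slightly below the ranges of the 9 libraries for Krt13 (17.1%), Krt14 (13.0%) and Krt15 (15.5%) and inside for Krt17 (21.8%). Krt14 stood at 18.4% and 24.1% of Krt19 in replicates 1 and 3, against 13.1% to 13.8% in WT E2. Krt5 stood at 67.3% and 136% of Krt8, against 28.1% in replicate 2, 22.8% to 26.1% in WT E2 and 9.93% to 19.8% in the 12 intact and ovx libraries. In replicate 3 Krt5 was therefore above Krt8, which happened in no other library.

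**Figure D3:**
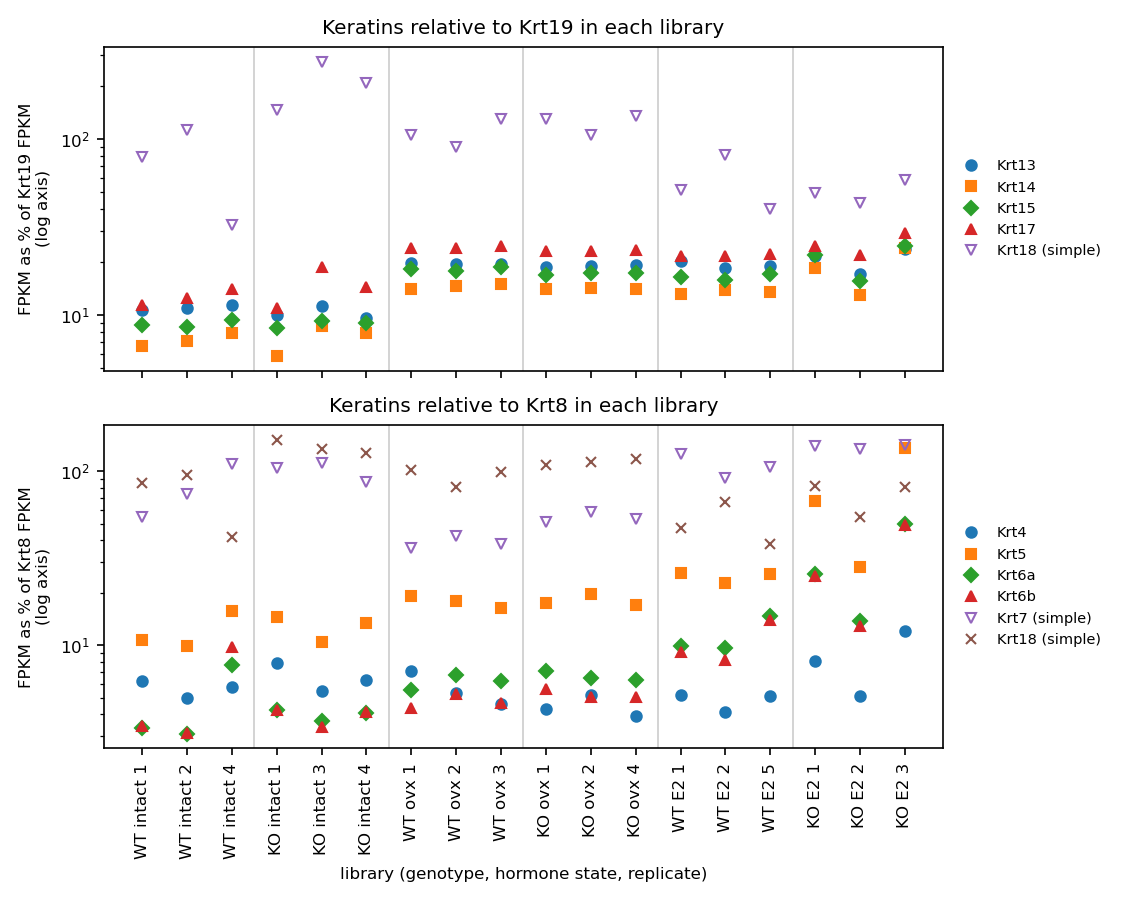
FPKM of type I keratins as a percentage of Krt19 (top) and of type II keratins and Krt18 as a percentage of Krt8 (bottom) in each of the 18 libraries, on log axes, with open symbols or crosses for simple keratins. The 4 stratified type I keratins form level rows within ovx and WT E2 libraries, of which Krt13 and Krt15 are level within intact libraries too, Krt18 scatters, and Krt5, Krt6a and Krt6b climb in KO E2 replicates 1 and 3.

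The other 2 keratins were Krt80, which rose with E2 in WT as all 8 stratified keratins did, and Krt23. Krt80, a type II keratin found near desmosomes, rose with E2 in WT from 0.899, 2.43 and 2.90 to 29.1, 17.4 and 32.5 FPKM (3.17 ± 0.56, adjusted p = 0.00054). It was not called in KO, where its level was 4.86, 3.71 and 11.3 FPKM in ovx and 3.45, 18.6 and 14.6 in E2. Krt23 was low in WT intact (1.5, 0.174 and 0.0643 FPKM) and higher in KO intact (2.77, 4.82 and 9.44 FPKM), without overlap. Its log2 difference of 2.06 ± 0.55 missed the threshold (adjusted p = 0.0659), and its direction was opposite to that of the other 13 keratins in that comparison.

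All 7 tested desmosome genes rose with E2 in WT, as the 4 simple keratins did, where 32.3% of all genes tested rose. None of the 7 was called in KO (1 of 7 at an unadjusted p under 0.05), where 15.9% of all genes rose and 11.2% fell. Jup, which encodes plakoglobin, stood at 4.13, 6.31 and 6.57 FPKM in WT ovx, 31.8, 24.6 and 45 in WT E2, 13.6, 10.5 and 22.9 in KO ovx and 8.18, 18.3 and 12.0 in KO E2. WT E2 lay above and WT ovx below every KO library of both states. The response to E2 was 2.36 ± 0.34 in WT (adjusted p = 0.000157) and -0.27 ± 0.34 in KO, and the difference between them was -2.63 ± 0.48 (adjusted p = 0.00542). This difference stayed called without any single library, with an adjusted p up to 0.0208, and was lost with KO E2 replicates 1 and 3 both left out (adjusted p = 0.101).

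Jup was also called between the genotypes in ovx, higher in KO by 1.28 ± 0.34 (adjusted p = 0.0417). Under E2 it was lower in KO by -1.36 ± 0.34 (adjusted p = 0.0217). The ovx call ended without any one of 5 libraries, the exception being KO ovx replicate 2, with an adjusted p up to 0.198. It also ended with batch as a term (adjusted p = 0.0907), with only the groups compared fitted (0.0609), with the replicate block (0.0579) and with no filter on low values (0.0507). The E2 call ended without WT E2 replicate 1 or 5 or KO E2 replicate 1 or 3, with an adjusted p up to 0.139, with only the groups compared fitted (adjusted p = 0.162) and with the replicate block (0.0632).

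Perp, a p63-regulated membrane protein of desmosomes, rose with E2 in WT from 2.20, 5.04 and 3.40 to 51.7, 30.5 and 70.6 FPKM (3.48 ± 0.65). In KO it stood at 12.4, 9.62 and 23.7 FPKM in ovx and 3.88, 32.6 and 26.5 in E2, with replicate 1 of E2 below all ovx libraries. Its responses differed between the genotypes by -3.36 ± 0.92 (adjusted p = 0.0322). Dsp, the linker to keratin filaments, responded by 1.56 ± 0.42 in WT and by -0.99 ± 0.42 in KO, where it did not pass (adjusted p = 0.0977), and the difference was -2.55 ± 0.60 (adjusted p = 0.0179). Its level in KO E2 was 0.659, 5.17 and 1.57 FPKM, with replicate 2 nearest to the WT E2 libraries at 6.80, 5.33 and 9.13. The difference in response ended for Dsp without WT ovx replicate 1 (adjusted p = 0.0554). For Perp it ended without any one of 7 libraries, the exceptions being WT ovx, KO ovx and WT E2 replicate 2 and KO E2 replicates 2 and 3, with an adjusted p up to 0.0863.

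The plakophilins Pkp2 and Pkp3, which brace the desmosomal plaque, differed in the response to E2 by -1.86 ± 0.46 (adjusted p = 0.0216) and -1.97 ± 0.57 (adjusted p = 0.0404). The Pkp2 call ended without WT ovx replicate 1, KO ovx replicate 4, WT E2 replicate 5 or KO E2 replicate 1, and the Pkp3 call without any one of 9 of the 12 libraries, the exceptions being KO ovx, WT E2 and KO E2 replicate 2. Pkp2 was also lower in KO than in WT under E2, by -1.16 ± 0.32 (adjusted p = 0.0386), with 0.536, 2.34 and 1.09 FPKM against 3.63, 2.94 and 5.52 and no overlap. It and Jup were the 2 of 26 tested members called in that comparison, both lower, where 3.58% of all genes were called lower and 4.91% higher. The Pkp2 call under E2 ended without WT E2 replicate 1 or 5 or KO E2 replicate 1 or 3, with an adjusted p up to 0.22, with batch as a term (adjusted p = 0.0608), with no filter on low values (0.063), with the replicate block (0.0985) and with only the groups compared fitted (0.182). Over the tested members the median was -0.93, against -0.05 over all genes, and it was -0.94 within batch 4 (2 against 2 libraries) and -0.71 within batch 3 (1 against 1). Epithelial markers summed to 72.5 and 129 FPKM in KO E2 replicates 1 and 3 and to 649 in replicate 2, and stromal markers to 1010, 915 and 184, against 589 to 935 and 138 to 200 in WT E2. The part of these sums in the lower levels was not tested. Without KO E2 replicate 1 the median was -0.43. With only KO E2 replicate 2 kept, 0 members were called (1 of 26 at an unadjusted p under 0.05) and the median was -0.40. Without KO E2 replicate 2, 7 members were called.

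The desmosomal cadherins Dsg2 and Dsc2, the isoforms of simple epithelia, rose with E2 in WT by 1.21 ± 0.46 and 2.22 ± 0.75. The Dsg2 call ended without any one of 5 of the 6 libraries, with WT E2 replicate 2 the exception, and the Dsc2 call without WT ovx replicate 1 or 3 or WT E2 replicate 1 or 5. Their counterparts of stratified epithelia were nearly absent. Dsg3 did not exceed 0.988 FPKM, Dsc3 0.161 and Pkp1 0.271 in any library. Intact against ovx, all 7 tested desmosome genes rose in WT, from 1.23 ± 0.41 (Pkp3) to 2.88 ± 0.65 (Perp), and none was called in KO (1 of 7 at an unadjusted p under 0.05). The WT calls of Dsc2 and Pkp3 ended without WT intact replicate 4 or WT ovx replicate 1.

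Together, 5 of the 7 tested desmosome genes and 2 of the 4 simple keratins made up the 7 members whose response to E2 differed between the genotypes. Epithelial markers in general did the same: 10 of 12 were called in that direction, with a median of -2.88, while the median over the tested members was -1.89 and over all genes -0.14. The count of 7 members fell to 1 without WT ovx replicate 1, to 2 without KO ovx replicate 4, WT E2 replicate 5 or KO E2 replicate 1, to 3 without KO ovx replicate 1 or WT E2 replicate 1 and to 4 without WT ovx replicate 2 or 3, and it rose to 10 without KO E2 replicate 2. With batch as a term it was 3 (Dsp, Pkp2 and Jup), Krt8, Krt18, Pkp3 and Perp having adjusted p from 0.0628 to 0.0902, and with the replicate block it was 2 (Krt18 and Jup). With only KO E2 replicate 2 kept, 0 members were called (5 of 26 at an unadjusted p under 0.05) and the median was -1.46. For the presence of ovaries, 0 of 26 tested members differed between the genotypes in limma (19 of 26 at an unadjusted p under 0.05), where 3.60% of all genes were called in the lower direction and 1.02% in the higher. The smallest adjusted p there was that of Krt19 (-3.25 ± 0.89, adjusted p = 0.0503), and 9 members were called without WT intact replicate 1 and 4 without KO ovx replicate 2.

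**Figure D4:**
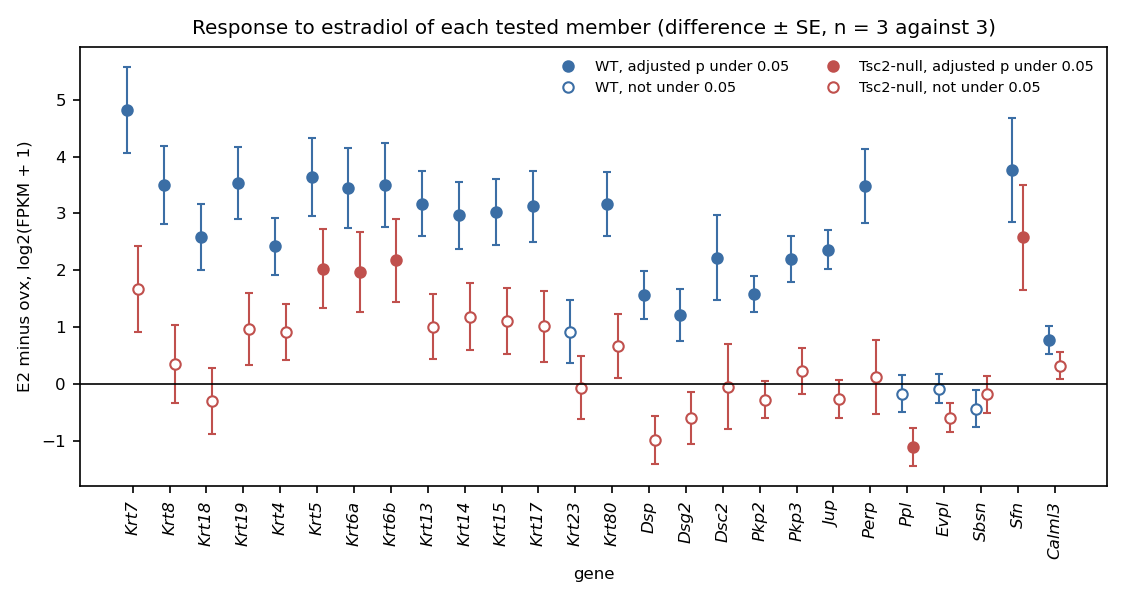
Difference between E2 and ovx in log2(FPKM + 1) for each tested member, ± SE of the model, in WT (blue) and KO (red), n = 3 against 3, with filled points at an adjusted p under 0.05. In WT 22 of 26 points are filled and positive; in KO Krt5, Krt6a, Krt6b and Sfn are filled and positive and Ppl is filled and negative.

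Of the 11 cornified-envelope members, 3 could be tested, and none of the 3 was called with E2 in WT (0 at an unadjusted p under 0.05). Ppl (periplakin) and Evpl (envoplakin), which link filaments to the envelope, differed by -0.17 ± 0.33 and -0.08 ± 0.26, and Sbsn, a secreted protein of upper skin layers, by -0.44 ± 0.32. In intact uterus Ppl (6.76, 5.51 and 2.01 FPKM in WT against 1.12, 1.25 and 1.73 in KO, no overlap) and Evpl had log2 differences between KO and WT of -1.18 ± 0.33 (adjusted p = 0.0765) and -0.67 ± 0.26 (adjusted p = 0.178), the direction most keratins had there. Without WT intact replicate 4, Ppl was called (-1.60 ± 0.29, adjusted p = 0.0195). The genotype difference in the response to ovaries was -1.62 ± 0.47 for Ppl and -1.23 ± 0.36 for Evpl, not called (adjusted p = 0.0591 and 0.0634). In KO, Ppl fell with E2 by 1.11 on the log2 scale (SE 0.33, adjusted p = 0.0218), from 3.27, 2.24 and 4.30 to 0.421, 1.12 and 1.42 FPKM, without overlap. That call ended without KO ovx replicate 1 or 4 or KO E2 replicate 1, with an adjusted p up to 0.1, and with batch as a term (adjusted p = 0.102).

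Sbsn and Krt23 were the 2 tested members with a higher mean log2 level in KO than in WT in intact uterus, and Sbsn was called. It stood at 0.789, 0.907 and 0.217 FPKM in WT intact and 2.75, 4.65 and 7.65 in KO intact, so that every KO library lay above every WT library. The log2 difference was 1.82 ± 0.32 (adjusted p = 0.0107), and the call ended without KO intact replicate 3 (adjusted p = 0.0527) and with only the groups compared fitted (adjusted p = 0.133). Sbsn was also the 1 member that fell in intact against ovx in WT, by 1.33 on the log2 scale (SE 0.32, adjusted p = 0.00476), and this call held without any single library.

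The remaining cornified-envelope genes and Trp63 stayed low nearly everywhere. Tgm3, Krtdap and Cdsn did not exceed 0.136, 0.176 and 0.465 FPKM in any library, and Krtdap was listed at 0 in 12 and Cnfn in 13 of 18. Lor reached 2.37 FPKM and Cnfn 2.63, both in WT E2 replicate 1, and Tgm1 1.85 in KO E2 replicate 1. Of these 12 untested members, 5 were highest in KO E2 replicate 3 and 3 in KO E2 replicate 1.

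Trp63, which encodes p63, had levels of 0.326, 0.0151 and 5.61 FPKM in KO E2 replicates 1, 2 and 3 and at no more than 0.338 in any other library. Ivl, the envelope precursor involucrin, had levels of 0.514, 0.0285 and 23.3 FPKM in the same 3 libraries and at no more than 0.141 elsewhere. Lypd3, a surface protein of differentiating squamous cells, stood at 0.680, 0.0369 and 5.32 FPKM in them and at no more than 0.0639 elsewhere. Replicate 3 thus held all 3, replicate 1 held Ivl and Lypd3 at low levels, and replicate 2 was like the WT E2 libraries.

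Markers of other tissues were present in the same 2 libraries, and some of them in other libraries too. The uroplakin Upk3a, which belongs to the lining of the bladder, had levels of 5.10, 0 and 68.4 FPKM in KO E2 replicates 1, 2 and 3 and at no more than 0.057 elsewhere. The 5 bladder markers together summed to 2.70 to 224 FPKM in KO E2 and to 1.14 to 27.1 in the other groups, highest there in WT intact replicate 2. The 7 adipocyte markers summed to 4.93 to 2400 FPKM in KO E2 and to 0.16 to 144 elsewhere. The highest sums elsewhere were those of KO ovx replicate 4 (144) and WT E2 replicate 2 (47.5). Epcam, an adhesion protein of simple epithelia, had levels of 9.37, 101 and 14.7 FPKM in KO E2, lowest in the 2 libraries with most Upk3a. The 11 markers of skin and hair summed to 3.10 to 13.8 FPKM in KO E2 and to 13.3 to 25.6 in WT E2. The part of bladder or fat tissue in the squamous genes of these libraries was not tested.

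**Figure D5:**
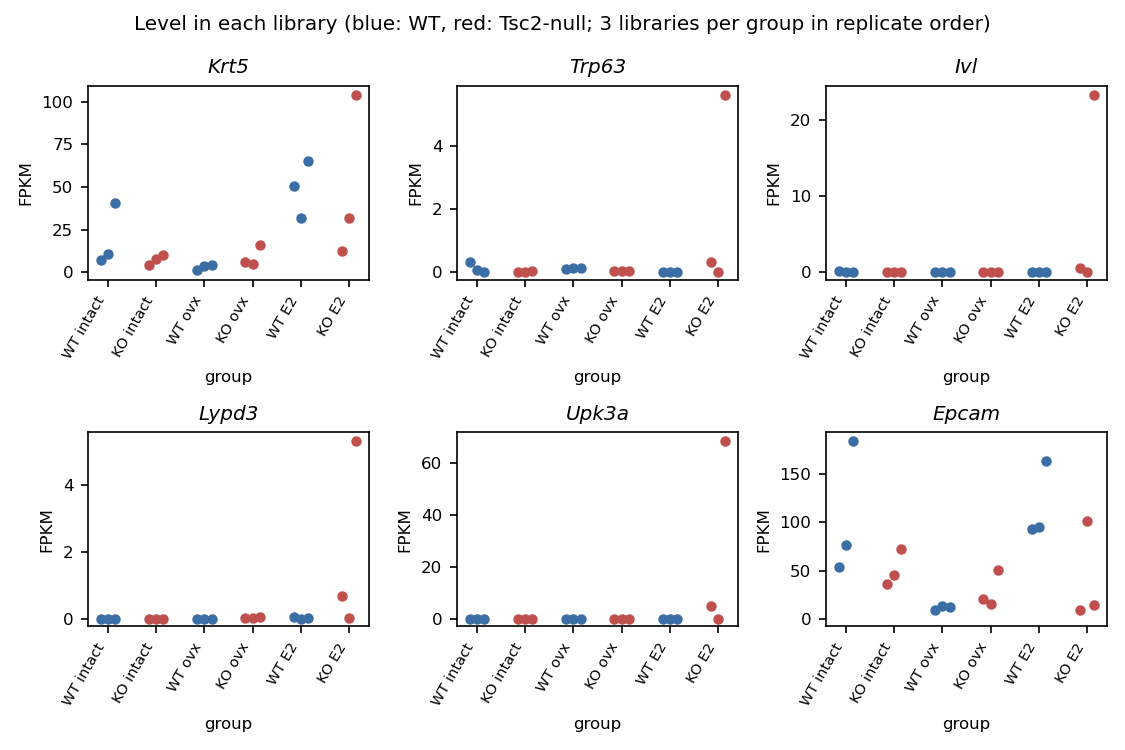
FPKM of Krt5, Trp63, Ivl, Lypd3, the bladder marker Upk3a and the epithelial marker Epcam in each library, blue for WT and red for KO, with the 3 libraries of a group in replicate order. Trp63 (5.61), Ivl (23.3), Lypd3 (5.32) and Upk3a (68.4) have their highest value in KO E2 replicate 3, where Epcam is at 14.7.

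Sfn, the epithelial 14-3-3 protein that restrains the cell cycle, was called with E2 in both genotypes. It rose in WT from 0.735, 1.33 and 1.66 to 31.0, 18.7 and 41.6 FPKM (3.76 ± 0.92, adjusted p = 0.00415). In KO it rose from 1.45, 1.25 and 5.33 to 6.08, 30.3 and 32.4 FPKM (2.58 ± 0.92, adjusted p = 0.0491), again without overlap. The KO call ended without KO ovx replicate 1 or 2 or KO E2 replicate 2 or 3, with an adjusted p up to 0.147, and with batch as a term (adjusted p = 0.078). The responses of the genotypes differed by -1.19 ± 1.30, which was not called (adjusted p = 0.585).

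Calml3, a calmodulin-like protein of epithelia, varied less than any of the 14 keratins, from 7.55 to 25.1 FPKM over the 18 libraries. It rose with E2 in WT by 0.77 ± 0.24 (adjusted p = 0.0171), where its direction turned under quantile normalization (-0.04) and the call ended without WT ovx replicate 1 or WT E2 replicate 1 or 5. Sfn and Calml3 also rose in intact against ovx in WT (2.59 ± 0.92 and 1.03 ± 0.24), and that call of Sfn ended without WT intact replicate 4 or any one WT ovx library (adjusted p up to 0.182). Calml3 was the 1 member called in intact against ovx in KO (0.76 ± 0.24, adjusted p = 0.0458), with 16.9, 15.9 and 17.2 against 8.89, 8.27 and 11.4 FPKM. That KO call ended without any one of 5 of the 6 libraries, the exception being KO ovx replicate 4, with an adjusted p up to 0.151.

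Other genes of these structures, from lists of the same families, gave context. Of 11 tested further keratins, 10 rose with E2 in WT and 1 in KO, where 32.3% and 15.9% of all genes tested rose. The largest rises in WT were those of Krt16 (2.81 ± 0.58), Krt79 (2.71 ± 0.49) and Krt75 (2.50 ± 0.54), and the KO gene was Krt2 (0.85 ± 0.29). Krt2 reached 1 FPKM in E2 libraries only, so the filter itself favoured its rise in both genotypes. Krt71 (-2.31 ± 0.55) and Krt78 (-1.29 ± 0.36) differed between the genotypes in this response, a call that ended for Krt71 without WT ovx replicate 1 or WT E2 replicate 5 and for Krt78 without any one of 8 libraries. Krt71 was also lower in KO than in WT under E2 (-1.52 ± 0.39). Krt1, the suprabasal keratin of skin, did not exceed 0.212 FPKM in any library. The suprabasal skin desmosome genes Dsg1a, Dsg1b, Dsg1c, Dsg4 and Dsc1 did not pass the filter. All 3 tested genes of the further desmosome list rose with E2 in WT (Ctnnb1 1.42 ± 0.25, Pkp4 1.09 ± 0.31, Ctnna1 0.96 ± 0.25) and 0 of 3 in KO (0 at an unadjusted p under 0.05).

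Of 8 tested genes of hemidesmosomes and basal anchorage, which fix epithelium to its basement membrane, 5 rose and 1 fell with E2 in WT, led by the integrin Itga6 (2.39 ± 0.56), the laminin chain Lamb3 (2.06 ± 0.54) and the tetraspanin Cd151 (1.15 ± 0.23), with Dst lower (-0.97 ± 0.31). In KO, Itgb1 rose (0.80 ± 0.23) and Itgb4 (-1.70 ± 0.39) and Dst (-1.22 ± 0.31) fell. The shares of all genes tested were 32.3% higher and 15.2% lower in WT, and 15.9% and 11.2% in KO. Itgb4, the integrin chain of hemidesmosomes, was higher in KO than in WT without hormone: 12.7, 8.25 and 14.9 against 2.44, 3.54 and 2.96 FPKM, a difference of 1.68 ± 0.39 (adjusted p = 0.0252). Its call there ended without any one of 5 libraries, the exception being KO ovx replicate 2, with an adjusted p up to 0.129. Its responses to E2 differed by -2.79 ± 0.56 and those of Lamb3 by -2.63 ± 0.76; the Lamb3 call ended without any one of 9 of the 12 libraries.

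A further 9 cornified-envelope and barrier genes were tested, and here both genotypes responded. With E2, 7 rose and 1 fell in WT (32.3% and 15.2% of all genes), and 6 rose in KO (15.9% of all genes). Ly6d, a surface protein of squamous and activated epithelium, rose from 1.45, 0.615 and 0.795 to 36.0, 140 and 151 FPKM in WT (5.59 ± 0.77) and from 0.273, 0.338 and 1.04 to 50.9, 186 and 304 FPKM in KO (6.57 ± 0.77). The groups did not overlap in either genotype. The envelope precursor genes Sprr1a and Sprr1b rose by 5.10 ± 1.44 and 4.78 ± 0.73 in WT and by 6.37 ± 1.44 and 6.07 ± 0.73 in KO. Sprr1b did not reach 1 FPKM in 3 libraries outside the E2 groups, so the filter itself favoured its rise in both genotypes. Il1rn, the interleukin-1 receptor antagonist, rose by 3.20 ± 0.51 in WT and by 4.49 ± 0.51 in KO. Tgm2 rose by 3.67 ± 0.92 in WT (adjusted p = 0.0048) and was not called in KO (2.05 ± 0.92, adjusted p = 0.11). Emp1 fell in WT (-1.12 ± 0.38). None of these 9 differed between the genotypes in the response to E2 (0 at an unadjusted p under 0.05). Il1rn is also made by neutrophils, whose 9 markers summed to 22.6 to 291 FPKM in KO ovx and 1460 to 15000 in KO E2, and their part in its rise was not tested. In intact uterus Anxa1 was lower in KO than in WT (-1.44 ± 0.35, adjusted p = 0.0452), a call that ended without WT intact replicate 4 or any one KO intact library.

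Of 11 tested regulators of stratified epithelium, 4 rose and 4 fell with E2 in WT and 1 rose and 1 fell in KO. Among all genes tested, 32.3% rose and 15.2% fell in WT, and 15.9% rose and 11.2% fell in KO. Ovol2, a repressor that keeps cells epithelial, rose in WT by 2.74 ± 0.52 and was lower in KO than in WT under E2 (-2.35 ± 0.52, adjusted p = 0.0114), with 0.425, 3.96 and 0.450 against 12.4, 8.32 and 9.96 FPKM. Replicate 2 was again the KO library nearest to WT, and the call ended without WT E2 replicate 1 or KO E2 replicate 1 or 3. Hes1 (1.42 ± 0.43) and Runx1 (1.01 ± 0.23) also rose in WT, while Fgfr2 (-1.51 ± 0.46), Maf (-1.37 ± 0.42) and Prdm1 (-1.25 ± 0.48) fell. In KO, Runx1 (1.52 ± 0.23) rose and Fgfr2 (-3.16 ± 0.46) fell. Ovol1 was lower in KO than in WT in intact uterus (-0.94 ± 0.17, adjusted p = 0.0103), with 0.242, 0.591 and 0.534 against 1.58, 1.84 and 1.95 FPKM, and the call ended without KO intact replicate 1 (adjusted p = 0.0567).

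With ovaries in place, the same lists gave these calls. Intact against ovx called 29.9% of all genes higher and 15.4% lower in WT, and 7.14% and 8.74% in KO. In WT intact against ovx, 3 of 11 further keratins rose (Krt16 1.60 ± 0.58, Krt75 1.56 ± 0.54, Krt10 1.12 ± 0.42), as did all 3 further desmosome genes (Ctnnb1 1.62 ± 0.25, Ctnna1 1.13 ± 0.25, Pkp4 0.92 ± 0.31). Of the hemidesmosome list, Itga6 (1.89 ± 0.56), Lama3 (1.11 ± 0.39) and Itgb1 (0.73 ± 0.23) rose, and Dst fell (-0.91 ± 0.31). Anxa1 (3.20 ± 0.35), Cstb (1.83 ± 0.37) and Serpinb5 (1.59 ± 0.51) rose in the cornified-envelope list. Of the regulators, 4 rose, led by Ovol2 (2.60 ± 0.52), Hes1 (1.61 ± 0.43) and Ovol1 (1.16 ± 0.17), and Bmp4 (-1.40 ± 0.40), Maf (-1.27 ± 0.42) and Notch1 (-0.43 ± 0.16) fell.

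In KO intact against ovx, Krt71 (-1.49 ± 0.39), Krt78 (-0.81 ± 0.26) and Itgb4 (-2.14 ± 0.39) fell, and Anxa1 (1.51 ± 0.35), Ctnnb1 (0.99 ± 0.25), Itgb1 (0.92 ± 0.23), Runx1 (0.92 ± 0.23) and Ctnna1 (0.78 ± 0.25) rose. Under E2, Pkp4 (-1.14 ± 0.31) and Itga6 (-1.89 ± 0.56) were lower in KO than in WT. The response to E2 differed between the genotypes by -1.56 ± 0.35 for Ctnnb1 and -3.46 ± 0.73 for Ovol2. The response to the presence of ovaries differed by -2.22 ± 0.58 for Klf5 and -1.17 ± 0.24 for Ovol1.

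Several of these calls on the further lists rested on single libraries. In WT intact against ovx, the calls of Krt10, Krt16, Krt75, Lama3, Maf, Dst, Itgb1, Serpinb5, Pkp4, Bmp4, Itga6 and Notch1 each ended without WT intact replicate 4, and all of these but Bmp4 and Itga6 also without WT ovx replicate 1. In KO intact against ovx, the calls of Anxa1, Ctnnb1, Ctnna1 and Runx1 ended without KO ovx replicate 2, those of Krt71 and Krt78 without KO ovx replicate 4 and that of Itgb1 without KO intact replicate 3. For E2 against ovx in WT, Dst, Hes1, Fgfr2, Emp1, Itgb4, Prdm1 and Notch1 lost their calls without WT E2 replicate 5. In KO, Krt2 lost its call without KO E2 replicate 2 or 3 and Itgb1 without KO E2 replicate 1 or 3. Under E2, Pkp4, Itga6 and Krt71 no longer differed between KO and WT by the test without WT E2 replicate 1 or 5 or KO E2 replicate 1 or 3. The difference in response of Klf5 ended without any one of 10 libraries, and that of Ovol1 without WT ovx replicate 1 (adjusted p = 0.0579).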

How the data were processed

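Uterine RNA was measured as FPKM, values that the authors computed with Cufflinks 2.0.2 and Cuffdiff, per the submitters' processing notes, and deposited as one table of 25791 symbols and 18 libraries. The aligner, the build and the handling of reads that match several genes are not given in the sources used here. Groups and replicate numbers came from the sample titles, and 1 compound number was read as replicate 4. FPKM were taken as log2(FPKM + 1). The 13898 genes that reached 1 FPKM in 3 or more libraries were fitted with limma 3.58.1 in R 4.3.3 (group means over all 18 libraries, eBayes with trend, two-sided), in 9 comparisons, with Benjamini-Hochberg adjustment over all genes tested. This scale understates the change of low genes. The fit was tested on simulated data. Batches were formed from ratios of values up to 0.05 FPKM, with the number of sets fixed at 4. With that number kept, 3 of 3 other settings gave the same sets. All 38 members are named, with, of each further list and comparison, up to 3 genes each way that passed. Il1rn and Tgm2 are named in addition. A few items are not reported here. Members and lists were chosen with earlier results of these data known. Figures were drawn in Python 3.11.15 with matplotlib 3.10.9.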

Additional observations from a re-analysis of the deposited data

Results flagged for a closer look

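The response to estradiol differed between WT and KO, by the test of the difference itself, in 7 members. The log2 differences (KO response minus WT response) were -3.15 for Krt8, -2.89 for Krt18, -2.55 for Dsp, -1.86 for Pkp2, -1.97 for Pkp3, -2.63 for Jup and -3.36 for Perp. Among genes of the related lists it differed by -2.31 for Krt71, -1.29 for Krt78, -1.56 for Ctnnb1, -2.79 for Itgb4, -2.63 for Lamb3 and -3.46 for Ovol2. The response to the presence of ovaries differed by -2.22 for Klf5 and -1.17 for Ovol1. Without any single library, the difference stayed called for Jup, Ctnnb1, Itgb4 and Ovol2.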

How the results depend on the processing

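With 1 library left out at a time, the number of members called ranged from 0 to 3 for KO against WT in intact uterus, 0 to 1 in ovx and 0 to 7 under E2. It ranged from 19 to 22 (WT) and 0 to 7 (KO) for E2 against ovx, from 12 to 23 (WT) and 0 to 2 (KO) for intact against ovx, and from 1 to 10 (E2) and 0 to 9 (ovaries) for the genotype difference in response. With only the compared groups fitted, the count was 0 for KO against WT in intact, 2 in ovx, 0 under E2, 1 for E2 and 4 for intact against ovx in KO, and 4 for the difference in E2 response. With no filter on low values it was 0 for KO against WT in ovx, 1 under E2, 2 for E2 and 0 for intact against ovx in KO, and 3 for the difference in E2 response. A pseudocount of 0.1 gave 1 for the difference in ovaries response. Median-ratio scaling gave 2 for KO against WT in intact, 3 for intact against ovx in KO and 4 for the difference in ovaries response, and quantile normalization gave 2, 4 and 7 for these and 2 for KO against WT in ovx. With batch as a term the count was 0 for KO against WT in ovx, 1 under E2, 3 for E2 against ovx in KO and 3 for the difference in E2 response; intact against ovx could not be fitted with batch, since no batch holds both. The cause of these changes was not tested. With only KO E2 replicate 2 kept, an alternative added after the data had been seen, the count was 0 in each of its 3 comparisons; the lone library is assumed there to vary like the other groups.

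Groups compared with each other shared at most 2 replicate numbers, and deviations of same-numbered samples correlated between -0.181 and 0.339. Samples with different numbers were not correlated for reference, so these values cannot decide whether the numbers pair the samples. With the replicate block the count was 4 for KO against WT in intact, 0 in ovx, 0 under E2, 8 for E2 against ovx in KO, 2 for the difference in E2 response and 4 for that in ovaries response.

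Quantile normalization reversed the log2 difference of 3 genes, to -0.0411 for Calml3, -0.0094 for Ctnna1 and -0.0553 for Itgb1 in E2 against ovx and to -0.0399 for Itgb1 in intact against ovx, all in WT. Over all genes it turned the calls for KO against WT in ovx from 643 higher and 110 lower to 1015 and 963, and those for E2 against ovx in KO from 2213 and 1554 to 1933 and 2955. For intact against ovx in WT it gave 3510 and 3161 against 4154 and 2145. For the genotype differences it gave 1065 and 1113 against 563 and 966 (E2) and 674 and 821 against 142 and 501 (ovaries). Of 2026 alternatives for single genes, 1586 kept direction and call, 436 kept the direction and lost the call, and 4 reversed. With Krt23 and Krt80 counted in, the stratified share was 14.1% in KO intact, 26.7% in WT ovx, 25.0% in KO ovx and 27.1% in WT E2. Without Krt6a and Krt6b it was 10.3%, 21.9%, 20.1% and 21.1%. Depth is unknown, and 3 libraries a group limit every test.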
